A study of Homo sapiens with 24 samples.

Results

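PML nuclear bodies and the SUMO pathway were followed through 8 genes, taken by symbol out of the 60655 genes of a deposited count table. They were the body proteins PML, SP100 and DAXX, the small modifiers SUMO2 and SUMO3, the SUMO ligase PIAS1, the ubiquitin ligase RNF4 and the SUMO protease SENP6. The table covers 24 libraries of poly(A) RNA from 2 established leukaemia lines, both labelled wild type, with 3 libraries in each of 8 groups. NB4, an acute promyelocytic leukaemia (APL) line that carries the PML-RARA fusion gene, and HL-60, an acute myeloid leukaemia line without it, each received arsenic trioxide plus all-trans retinoic acid (ATRA+ATO), ATRA at 1 µM, ATO at 0.8 µM, or no drug. Treatment lasted 48 h. Nothing in the labels states the dose of each drug within the combination or how long untreated cells were cultured. The 3 libraries of a group are numbered as batches, with no statement that they came from separate cultures, and p-values here therefore reflect the spread among those libraries alone, which may be technical.

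PML is the scaffold of nuclear bodies and is modified by SUMO, a small protein that is attached to lysines by a dedicated set of enzymes. SP100 and DAXX are held in the bodies largely through SUMO. Arsenic binds PML and drives chains of SUMO2 and SUMO3 onto it, RNF4 reads those chains and adds ubiquitin, and the proteasome then destroys PML and the PML-RARA protein of APL. PIAS1 is among the ligases that can modify PML, and SENP6 takes poly-SUMO chains apart. In untreated APL cells the fusion protein disperses the bodies. Only mRNA was counted here, and in NB4 the early exons of PML are shared with the fusion transcript, so a count for PML holds reads of both. In bulk RNA a change in the mix of cells and a change in RNA per cell cannot be told apart.

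All 8 genes were detected in every library, with 1116 to 12709 counts each, and all 8 passed the filter on low counts in each fit. Levels are given as CPM, counts scaled by library size and TMM factor. Library totals ran from 37811652 to 57795273 counts, and the promyelocyte markers summed to 2473 to 10039 CPM in the NB4 libraries and 857 to 4916 CPM in the HL-60 libraries. Of the 8 promyelocyte markers, 7 reached 1 CPM in some library of NB4 and 8 did so in HL-60. Of 11 markers of other lineages, 5 were at 0 in all 12 libraries of each line. In NB4 5 of the 11 reached 1 CPM in some library, with EPCAM the highest at 14.3 CPM. In HL-60 2 of the 11 did so, again with EPCAM the highest. The list of other lineages summed to at most 35.7 CPM in NB4 and 3.28 CPM in HL-60. Changes are log2 differences from edgeR's quasi-likelihood test ± SE, with Benjamini-Hochberg adjusted p over all genes of a comparison, and a gene was called below 0.05. The treatments of a line share its 3 untreated libraries.

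A pair of libraries lay at the ends of a spread within groups that bears on most of the 8 genes. NB4 ATRA replicate 2 was the highest of its group for SP100, PIAS1 and SENP6 and the lowest for PML, DAXX, SUMO2, SUMO3 and RNF4. HL-60 ATRA+ATO replicate 2 was the reverse in each of the 8 genes. The same pair were the extremes on a measure of GC content, the median deviation from the group mean of genes in the lowest of 4 classes of GC content minus that of genes in the highest (0.24 in NB4 ATRA replicate 2 and -0.21 in HL-60 ATRA+ATO replicate 2, log2). Other libraries came near them, at -0.19 in NB4 ATRA replicate 3 and 0.15 in HL-60 ATRA+ATO replicate 1. NB4 ATRA+ATO replicates 2 and 3 were at -0.12 and 0.14. The longest transcript of SENP6 has 36.1% GC, at the percentile of 3.4 among 12460 expressed genes, and those of PIAS1 and SP100 have 40.9% and 42.5%. SUMO2 has 44.2%, RNF4 47.9%, SUMO3 50.4%, DAXX 54.8% and PML 58.2% GC, with PML at the percentile of 81.8.

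The treatments also moved genes along GC content. In NB4 the median log2 change of the lowest and highest GC classes was -0.21 and 0.18 with ATRA+ATO, -0.17 and 0.11 with ATRA and -0.17 and 0.16 with ATO. In HL-60 it was 0.11 and -0.15 with ATRA+ATO, -0.03 and 0.05 with ATRA and -0.05 and 0.05 with ATO, so the combination ran the other way from NB4. Whether this comes from the cells or from the libraries was not tested. A fit that removes the trend along GC content in each library was added after the data were seen. Its value is called the GC-corrected value and is given beside each call that it changes, each called value that it moves by over 1.5 times and some of the values that were not called.

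**Figure D1:**
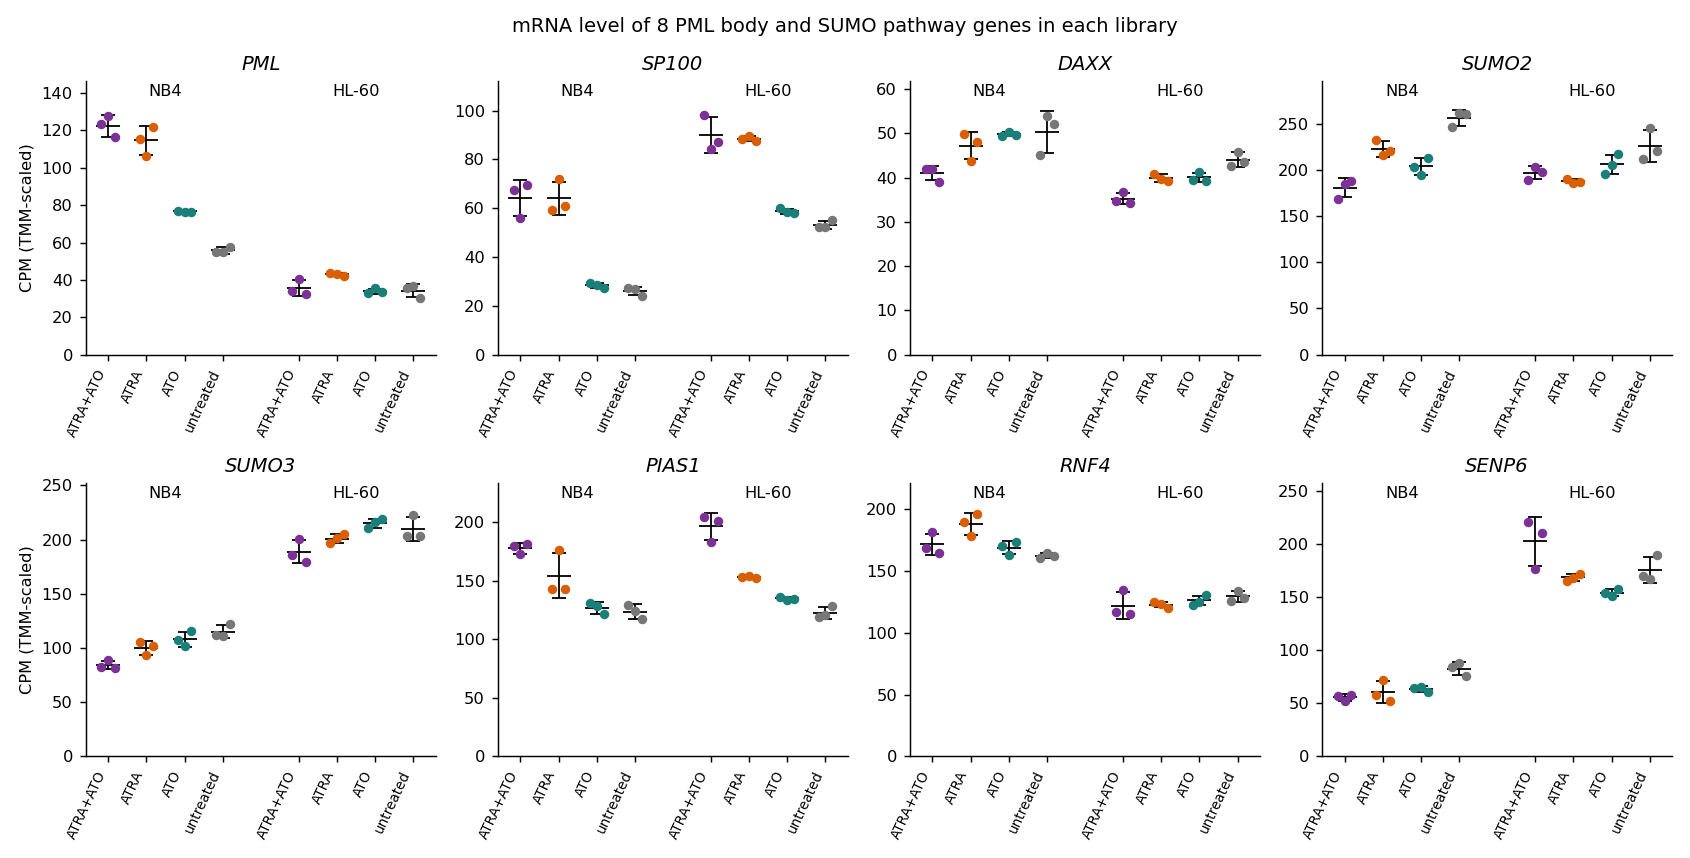
Level of each of the 8 genes in CPM (TMM-scaled, y axes from 0) in the 24 libraries; points are libraries, black bars the mean ± SD of 3 libraries, with NB4 groups on the left and HL-60 groups on the right of each panel. PML sits between 107 and 128 CPM in NB4 cells given ATRA with or without ATO, against 54.7 to 57.8 CPM in untreated NB4 cells, while SUMO3 and SENP6 are lower in each NB4 library than in any HL-60 library.

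PML, on chromosome 15 from 73994673 to 74047812 (GRCh38, GENCODE v29, as for all genes here), was higher in NB4 cells with each treatment. Its level was 123, 128 and 116 CPM with ATRA+ATO, 115, 107 and 122 CPM with ATRA and 76.8, 76.6 and 76.6 CPM with ATO, against 55.0, 54.7 and 57.8 CPM in untreated NB4 cells. No treated library overlapped an untreated one, and the ATO libraries lay between the untreated cells and the cells given ATRA. The log2 change was 1.13 ± 0.066 with ATRA+ATO (adjusted p = 9.39e-13), 1.06 ± 0.066 with ATRA (adjusted p = 4.35e-12) and 0.44 ± 0.065 with ATO (adjusted p = 1.25e-05). The GC-corrected change with ATO was smaller, at 0.24 (adjusted p = 1.77e-04), and for ATRA it was 0.84 and for the combination 0.85. Uncorrected, the rise with ATRA was 2.08-fold. Between ATRA+ATO and ATRA, PML differed by 0.07, with a 95% interval of -0.06 to 0.19 (adjusted p = 0.453).

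In HL-60 the level of PML was lower in every group than in untreated NB4 cells. It was 33.9, 40.5 and 32.6 CPM with ATRA+ATO, 43.7, 43.3 and 41.9 CPM with ATRA and 32.9, 35.5 and 33.5 CPM with ATO, against 35.9, 36.8 and 30.2 CPM in untreated HL-60 cells. The 3 ATRA libraries were above every other HL-60 library, and the other 3 groups overlapped. PML rose with ATRA (0.33 ± 0.082, adjusted p = 0.00166). With ATO its log2 difference was -0.00, with a 95% interval of -0.16 to 0.16, and with ATRA+ATO it was 0.08, with an interval of -0.09 to 0.24 (adjusted p = 0.992 and 0.452). GC correction gave a call for the combination (0.17, adjusted p = 0.0181).

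SP100, a body protein that is induced by interferons, showed the largest rise of the 8 genes with ATRA, and in NB4, unlike PML, it was not called with arsenic alone. Its gene lies on chromosome 2 from 230415942 to 230544090. In NB4 it stood at 67.6, 55.9 and 69.4 CPM with ATRA+ATO, 59.3, 71.9 and 60.9 CPM with ATRA and 29.3, 28.7 and 27.4 CPM with ATO, against 27.2, 26.7 and 24.1 CPM in untreated cells. Every NB4 library with ATRA lay at least at 55.9 CPM, and the 3 ATO libraries, though above the 3 untreated ones, reached at most 29.3 CPM. The change was 1.30 ± 0.090 with ATRA+ATO (adjusted p = 1.92e-11) and 1.32 ± 0.091 with ATRA (adjusted p = 2.42e-11). With ATO it was 0.12 ± 0.091 (adjusted p = 0.328), which GC correction turned into a call (0.19, adjusted p = 0.0323).

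The same order held in HL-60 from a higher start. SP100 was at 98.2, 84.4 and 87.0 CPM with ATRA+ATO, 88.3, 89.7 and 87.5 CPM with ATRA and 60.0, 58.3 and 57.9 CPM with ATO, against 52.3, 52.1 and 55.2 CPM in untreated HL-60 cells. No treated HL-60 library overlapped an untreated one. SP100 rose with ATRA+ATO (0.77 ± 0.058, adjusted p = 8.39e-11) and with ATRA (0.74 ± 0.058, adjusted p = 2.77e-10). The small rise with ATO (0.16 ± 0.058, adjusted p = 0.0492) was lost in 9 of 12 fits that left out 1 library (without untreated 1 or 2, ATRA 1, 2 or 3, ATO 1, 2 or 3, or ATRA+ATO 3), with values of 0.14 to 0.16 and adjusted p of 0.0648 to 0.159. It was also not called with DESeq2, its size factors, limma-voom, no filter, all 24 libraries or the compared groups alone (adjusted p of 0.0514 to 0.197). The GC-corrected value of this rise was 0.17 (adjusted p = 0.00568).

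The promoter of SP100 is shown because its gene rose with ATRA in both lines and is a known interferon target. The window below covers 250 bases before to 50 after a RefSeq start (GRCh38.p14, chr2:230415951-230416250, plus strand). RefSeq windows were at hand for 6 of the 8 genes, 9 windows in all. Capitals mark a match, on the opposite strand and 64 bases before the start, to AANNGAAA, the core read by interferon regulatory factors. That motif was added after the sequence had been seen, and 22.8% of 35116 human windows of this length hold it on either strand.
SP100: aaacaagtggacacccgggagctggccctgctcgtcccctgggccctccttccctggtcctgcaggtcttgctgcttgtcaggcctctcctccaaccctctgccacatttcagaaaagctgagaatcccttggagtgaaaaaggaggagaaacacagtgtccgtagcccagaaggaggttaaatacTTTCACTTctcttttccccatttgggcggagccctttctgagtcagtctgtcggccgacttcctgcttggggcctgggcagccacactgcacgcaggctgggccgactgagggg
The letters of an interferon-stimulated response element core (in 3.57% of windows), a gamma-activated site (TTCNNNGAA, in 7.66%), an antioxidant response element core (TGACNNNGC, in 13.3%) and a DR5 retinoic acid response element (in 0.0883%) were not in this window on either strand. The second SP100 window (chr2:230416506-230416805, plus strand), from a later start, held none of the motifs searched, the interferon regulatory factor core included. TGACNNNGC occurred once among the 9 windows, in the second RNF4 window (chr4:2469203-2469502, plus strand).

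DAXX, a histone chaperone that is recruited to the bodies by modified PML, was lower with the combination in both lines. In NB4 its level was 42.0, 41.8 and 39.1 CPM with ATRA+ATO, 49.8, 43.8 and 48.0 CPM with ATRA and 49.5, 50.2 and 49.5 CPM with ATO, against 45.0, 54.0 and 52.2 CPM in untreated cells. Only the ATRA+ATO libraries lay below all untreated ones, and the log2 change was -0.31 ± 0.077 (adjusted p = 0.00128, GC-corrected -0.53). With ATRA it was -0.07 (adjusted p = 0.434) and with ATO -0.03 (adjusted p = 0.772). Both became calls after GC correction, at -0.25 (adjusted p = 0.00112) and -0.21 (adjusted p = 0.0098).

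In HL-60 DAXX stood at 34.8, 36.7 and 34.3 CPM with ATRA+ATO, 40.8, 39.7 and 39.1 CPM with ATRA and 39.5, 41.2 and 39.2 CPM with ATO, against 42.5, 45.9 and 43.6 CPM in untreated cells. Each treated group lay below the untreated one without overlap. The fall with ATRA+ATO was called (-0.30 ± 0.061, adjusted p = 1.62e-04). The values of -0.13 with ATRA (adjusted p = 0.0703) and -0.12 with ATO (adjusted p = 0.13) were called after GC correction, at -0.20 (adjusted p = 0.00303) and -0.18 (adjusted p = 0.0104). The value with ATRA was also called with DESeq2 (-0.15, adjusted p = 0.0283), with its size factors, with library sizes alone and with a minimum of 1 CPM in 3 libraries (adjusted p of 0.0158 to 0.0489). DAXX lies on chromosome 6 from 33318558 to 33323016. It shares 441 exon bases with AL662820.1, a gene annotated at the same place on the same strand, and 13.72% of the 100-base windows of its transcript. AL662820.1 held 0 counts, and whether reads on the shared bases were left out of the DAXX count was not tested.

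SUMO2 and SUMO3, the modifiers that form the chains read by RNF4, encode nearly the same protein from different chromosomes. SUMO2 is on chromosome 17 from 75165586 to 75182983 and SUMO3 on chromosome 21 from 44805617 to 44818779. Stretches of 120 coding bases are printed to show how far reads can tell the pair apart (GENCODE v29, bases 43 to 162 of 288 in SUMO2 and 40 to 159 of 312 in SUMO3), with the 26 differences in capitals.
SUMO2: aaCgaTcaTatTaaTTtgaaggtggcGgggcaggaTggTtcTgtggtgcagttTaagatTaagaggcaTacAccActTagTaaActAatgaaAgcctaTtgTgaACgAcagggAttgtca
SUMO3: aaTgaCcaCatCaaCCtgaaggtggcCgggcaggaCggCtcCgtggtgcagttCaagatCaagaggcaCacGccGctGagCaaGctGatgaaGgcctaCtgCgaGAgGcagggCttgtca
Over the aligned coding bases 232 of 284 are the same (81.69%), and the longest run without a difference is 24 bases, far under the read length of 150. SUMO2 shares 3.72% of its 100-base windows with pseudogenes, mostly SUMO2P1, and SUMO3 shares none. The 19 annotated pseudogenes of the pair held at most 0.678% of the SUMO2 count.

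SUMO2 fell in NB4 with each treatment. It stood at 169, 185 and 188 CPM with ATRA+ATO, 232, 216 and 220 CPM with ATRA and 203, 195 and 213 CPM with ATO, against 246, 261 and 261 CPM in untreated cells. No treated library reached the lowest untreated one. The change was -0.51 ± 0.061 with ATRA+ATO (adjusted p = 1.28e-07), -0.34 ± 0.061 with ATO (adjusted p = 9.61e-05) and -0.18 ± 0.061 with ATRA (adjusted p = 0.0136). In HL-60 it was at 189, 203 and 198 CPM with ATRA+ATO, 190, 186 and 187 CPM with ATRA and 196, 205 and 217 CPM with ATO, against 212, 246 and 221 CPM in untreated cells. The ATRA+ATO and ATRA libraries lay below all untreated ones. The fall was called with ATRA (-0.26 ± 0.053, adjusted p = 2.75e-04) and with ATRA+ATO (-0.18 ± 0.053, adjusted p = 0.00471), where it was -0.12 without untreated replicate 2 (adjusted p = 0.0501).

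With ATO alone the HL-60 value of SUMO2 was -0.12 (adjusted p = 0.0897), and the ATO and untreated libraries overlapped. It was called without untreated replicate 1 (-0.17, adjusted p = 0.0372), ATRA+ATO replicate 1 (-0.14, adjusted p = 0.0465) or ATRA+ATO replicate 2 (-0.12, adjusted p = 0.043), and with GC correction (-0.13, adjusted p = 0.0463). SUMO2 shares 48 exon bases with the neighbouring gene JPT1, which reached 6330 counts in a library.

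SUMO3 fell in NB4 with ATRA and more so with the combination. In NB4 it stood at 82.6, 88.6 and 81.4 CPM with ATRA+ATO, 106, 93.1 and 102 CPM with ATRA and 107, 102 and 115 CPM with ATO, against 112, 111 and 122 CPM in untreated cells. The ATRA+ATO libraries lay below all the others of the line, a fall of 0.46 on the log2 scale (-0.46 ± 0.069, adjusted p = 3.72e-06). The fall with ATRA (-0.18 ± 0.069, adjusted p = 0.0286, GC-corrected -0.29) was not called without ATRA replicate 2 (-0.14, adjusted p = 0.0812) or without untreated replicate 3 (-0.14, adjusted p = 0.117). With ATO the value was -0.10 (adjusted p = 0.239), and it was called after GC correction (-0.23, adjusted p = 0.00112).

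In HL-60 SUMO3 was at 186, 200 and 180 CPM with ATRA+ATO, 197, 201 and 205 CPM with ATRA and 211, 216 and 219 CPM with ATO, against 203, 222 and 203 CPM in untreated cells. The highest ATRA+ATO library lay just under the lowest untreated ones, and the small fall (-0.14 ± 0.049, adjusted p = 0.021) was lost after GC correction (-0.08, adjusted p = 0.0976). It was also lost without untreated replicate 2 (-0.09, adjusted p = 0.135), ATRA+ATO replicate 1 (-0.12, adjusted p = 0.0562) or ATRA+ATO replicate 3 (-0.10, adjusted p = 0.117). ATRA (-0.05, adjusted p = 0.41) and ATO (0.05, adjusted p = 0.499) gave no call.

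PIAS1, a SUMO ligase, rose with ATRA in both lines, and its mean was highest with the combination. In NB4 the combination overlapped ATRA alone (adjusted p = 0.0634 between them), a difference that other fits called. In NB4 it stood at 179, 172 and 181 CPM with ATRA+ATO, 143, 176 and 143 CPM with ATRA and 131, 128 and 121 CPM with ATO, against 129, 124 and 117 CPM in untreated cells. ATRA replicate 2 was far above the other ATRA libraries, and only the ATO group overlapped the untreated one. The change was 0.52 ± 0.074 with ATRA+ATO (adjusted p = 1.85e-06) and 0.34 ± 0.074 with ATRA (adjusted p = 3.90e-04), or 0.22 without ATRA replicate 2 (adjusted p = 0.00268). With ATO it was 0.02 (adjusted p = 0.834), and a call after GC correction (0.16, adjusted p = 0.0138).

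HL-60 cells held 204, 183 and 201 CPM of PIAS1 with ATRA+ATO, 153, 154 and 152 CPM with ATRA and 136, 133 and 135 CPM with ATO, against 119, 120 and 128 CPM without drug. The 4 groups did not overlap, and they stood in the order untreated, ATO, ATRA, ATRA+ATO. The change was 0.70 ± 0.049 with ATRA+ATO (adjusted p = 2.66e-11), 0.33 ± 0.049 with ATRA (adjusted p = 6.17e-06) and 0.15 ± 0.049 with ATO (adjusted p = 0.024). The call with ATO was lost in 6 of 12 fits without 1 library (untreated 1 or 2, ATRA 1, or ATO 1, 2 or 3), at 0.13 to 0.15 and adjusted p of 0.054 to 0.0957. PIAS1 lies on chromosome 15 from 68054179 to 68198603 and shares 3260 exon bases with CALML4 on the opposite strand, which had at most 96 counts.

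RNF4, the ubiquitin ligase that reads SUMO chains, passed the test with ATRA in NB4 and with no other treatment in either line. In NB4 it stood at 169, 181 and 165 CPM with ATRA+ATO, 189, 178 and 196 CPM with ATRA and 170, 163 and 173 CPM with ATO, against 160, 165 and 162 CPM in untreated cells. Only the ATRA libraries were all well above the untreated ones, and ATRA alone gave a call (0.23 ± 0.060, adjusted p = 0.00203). With ATRA+ATO the value was 0.07 (adjusted p = 0.308), GC-corrected 0.00, and with ATO it was 0.04 (adjusted p = 0.635), GC-corrected -0.04. With library sizes alone both were called (0.15 each, adjusted p = 0.025 and 0.0416).

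In HL-60 no treatment gave a call for RNF4, which had 117, 134 and 115 CPM with ATRA+ATO, 125, 123 and 120 CPM with ATRA and 123, 125 and 130 CPM with ATO, against 126, 134 and 128 CPM in untreated cells. Only the ATRA libraries all lay below the untreated ones. The values were -0.07 (adjusted p = 0.311), -0.07 (adjusted p = 0.351) and -0.02 (adjusted p = 0.79) in that order of treatments. Without ATRA+ATO replicate 2 the combination gave a call of -0.14 (adjusted p = 0.012). RNF4 lies on chromosome 4 from 2462220 to 2625320 and shares 305 exon bases with FAM193A, which reached 3541 counts.

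SENP6, the protease that takes SUMO chains apart, fell in NB4 with every treatment. In NB4 it stood at 56.8, 51.8 and 57.8 CPM with ATRA+ATO, 57.8, 72.0 and 52.2 CPM with ATRA and 64.5, 65.6 and 60.5 CPM with ATO, against 84.6, 87.6 and 75.9 CPM in untreated cells. No treated library overlapped an untreated one, and ATRA replicate 2 came nearest. The change was -0.59 ± 0.092 with ATRA+ATO (adjusted p = 6.88e-06), -0.43 ± 0.092 with ATRA (adjusted p = 3.55e-04) and -0.39 ± 0.091 with ATO (adjusted p = 0.00143). All 3 calls were kept after GC correction at a smaller size, -0.38 with ATRA+ATO, -0.31 with ATRA and -0.17 with ATO (adjusted p = 2.31e-06, 4.16e-05 and 0.0159).

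In HL-60 SENP6 was at 220, 177 and 211 CPM with ATRA+ATO, 166, 168 and 172 CPM with ATRA and 154, 151 and 157 CPM with ATO, against 170, 167 and 189 CPM in untreated cells. ATRA+ATO replicate 2 fell among the untreated libraries while the other ATRA+ATO libraries lay above them. The rise with the combination (0.23 ± 0.064, adjusted p = 0.00397) was 0.02 after GC correction (adjusted p = 0.638) and no longer a call, and in that comparison low-GC genes as a whole were higher. With ATRA the value was -0.05 (adjusted p = 0.593). The fall with ATO (-0.17 ± 0.064, adjusted p = 0.0482, GC-corrected -0.11 with adjusted p = 0.0271) was lost in 7 of 12 fits without 1 library (untreated 1 or 3, ATRA 2 or 3, or ATO 1, 2 or 3), at -0.19 to -0.12 and adjusted p of 0.0606 to 0.238. SENP6 lies on chromosome 6 from 75601509 to 75718278.

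Counted together, 3 of the 8 genes rose and 4 fell in NB4 with ATRA+ATO, where 35.4% of the 16370 genes tested rose and 32.8% fell. With ATRA 4 rose and 3 fell (31.3% and 28.6% of all genes), and with ATO PML rose and SUMO2 and SENP6 fell (21.2% and 19.6%). In HL-60, with 15895 genes tested, 3 rose and 3 fell with ATRA+ATO (30.7% and 29.7%), 3 rose and 1 fell with ATRA (25.2% and 23.3%), and 2 rose and 1 fell with ATO (16.5% and 12.1%). With shares as high as these over all genes, the number of calls among 8 genes says little about them as a group. Against untreated cells, PML and SP100 in NB4 with ATRA or ATRA+ATO were the only changes of the 8 genes past 1 on the log2 scale. After GC correction SP100 stayed past 1 (1.39 with ATRA and 1.40 with ATRA+ATO) and PML did not (0.84 and 0.85).

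**Figure D2:**
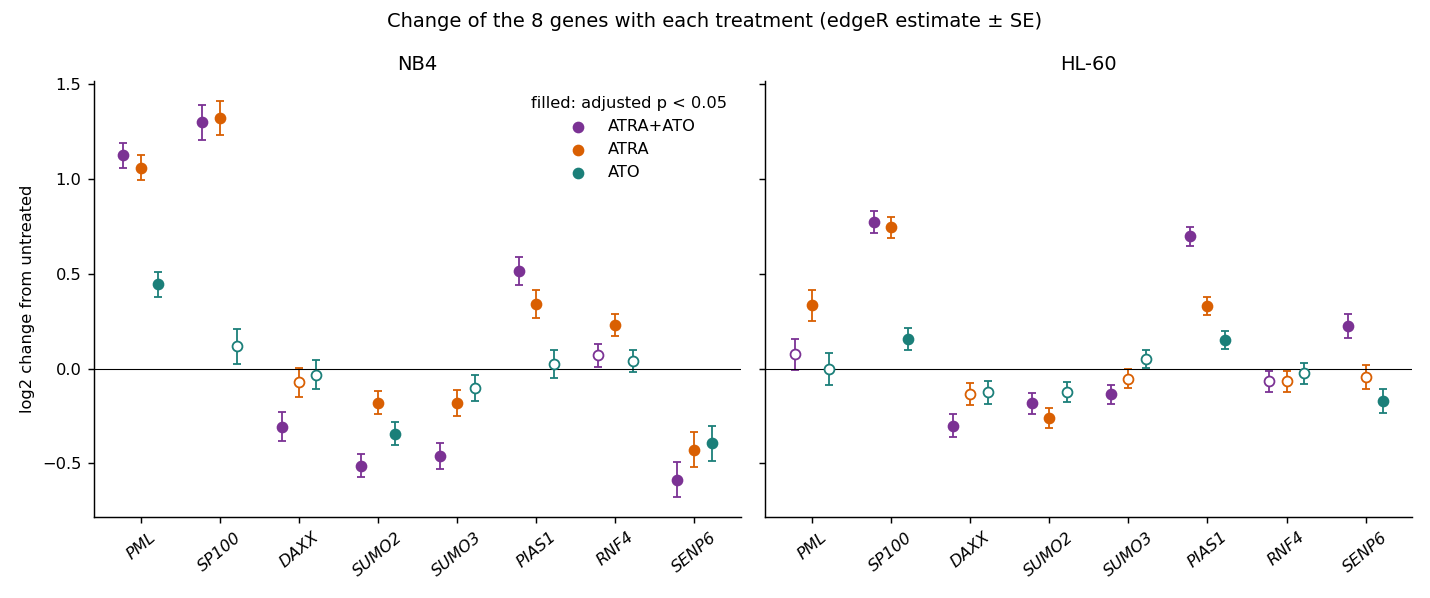
Log2 change from untreated (y axis, edgeR estimate ± SE) of the 8 genes with ATRA+ATO, ATRA and ATO in NB4 (left) and HL-60 (right); filled points passed an adjusted p of 0.05. PML and SP100 reach 1.06 to 1.32 in NB4 with ATRA alone or combined, SUMO2 is below 0 with every treatment, and SENP6 is at -0.59 in NB4 and 0.23 in HL-60 with ATRA+ATO.

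What ATO added to ATRA was read from the combination against ATRA alone. In NB4 4 of the 8 genes were lower and 0 higher, where 21.2% of genes were lower and 16.8% higher. SUMO2 (-0.33 ± 0.061, adjusted p = 1.62e-04) and SUMO3 (-0.28 ± 0.069, adjusted p = 0.00269) were lower with ATRA+ATO, at 169 to 188 and 81.4 to 88.6 CPM, against 216 to 232 and 93.1 to 106 CPM with ATRA. DAXX was lower too (-0.23 ± 0.077, adjusted p = 0.0202), and lost the call without ATRA replicate 1 (-0.18, adjusted p = 0.126), ATRA replicate 3 (-0.21, adjusted p = 0.0575) or ATRA+ATO replicate 3 (-0.19, adjusted p = 0.0977). The groups overlapped for RNF4 (-0.16 ± 0.059, adjusted p = 0.0372), which was not called with the replicate number as a block (adjusted p = 0.0604) or with DESeq2 (adjusted p = 0.0503), another scaling, another filter or another set of libraries in the fit (adjusted p of 0.0667 to 0.844). Its call was also lost in 8 of 12 fits without 1 library (untreated 1, 2 or 3, ATRA 1 or 3, ATO 1, or ATRA+ATO 1 or 3), at -0.16 to -0.12 and adjusted p of 0.053 to 0.157. After GC correction RNF4 (-0.16, adjusted p = 0.0063) and DAXX (-0.27, adjusted p = 0.00108) were still called. SP100 differed by -0.02, with a 95% interval of -0.19 to 0.15. SENP6 differed by -0.16 (adjusted p = 0.194), by -0.07 after GC correction (adjusted p = 0.373) and by -0.25 without ATRA replicate 3 (adjusted p = 0.0309). PIAS1 differed by 0.18 (adjusted p = 0.0634) and was called after GC correction (0.23, adjusted p = 5.31e-04), without ATRA replicate 2 (0.29, adjusted p = 4.21e-04) or without untreated replicate 3 (0.19, adjusted p = 0.0492). It was also called with DESeq2, its size factors, limma-voom, no filter, a minimum of 1 CPM in 3 libraries, all 24 libraries or library sizes alone (0.18 to 0.32, adjusted p of 0.00233 to 0.0392), so that the count of 0 higher rests on the fit used. With library sizes alone PML and PIAS1 were higher and SUMO2 was the gene called lower (2 and 1 of the 8).

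In HL-60 the combination gave 2 genes higher and 2 lower than ATRA alone (22.0% and 21.9% of all genes). PIAS1 was higher (0.37 ± 0.049, adjusted p = 1.96e-06, GC-corrected 0.24 with adjusted p = 4.60e-06). SENP6 was higher (0.27 ± 0.064, adjusted p = 0.0013), PML lower (-0.26 ± 0.082, adjusted p = 0.0135) and DAXX lower (-0.17 ± 0.061, adjusted p = 0.0277), and none of these 3 was called after GC correction (0.05, -0.07 and -0.03, with adjusted p = 0.321, 0.396 and 0.757). The call of PML was lost without ATRA+ATO replicate 1 (-0.23, adjusted p = 0.0505) or 3 (-0.20, adjusted p = 0.0823), and that of DAXX without ATRA replicate 1 or 2 or ATRA+ATO replicate 1 or 3 (-0.18 to -0.15, adjusted p of 0.0596 to 0.0862). SP100 (0.03), SUMO2 (0.08), SUMO3 (-0.08) and RNF4 (-0.00) gave no call (adjusted p = 0.721, 0.266, 0.185 and 0.993), except SUMO3 without ATRA+ATO replicate 2 (-0.13, adjusted p = 0.0218).

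What ATRA added to ATO was larger for PML and SP100 in NB4. Against ATO alone, ATRA+ATO gave 3 genes higher and 3 lower in NB4 (28.6% and 28.3% of all genes), with PML at 0.68 ± 0.065, SP100 at 1.18 ± 0.090 and PIAS1 at 0.49 ± 0.073 (adjusted p = 6.56e-09, 1.62e-10 and 5.07e-06). SUMO3 (-0.35 ± 0.069, adjusted p = 1.30e-04) and DAXX (-0.27 ± 0.077, adjusted p = 0.00415) were lower. SUMO2 was lower (-0.17 ± 0.061, adjusted p = 0.0224) except without ATO replicate 1 (-0.17, adjusted p = 0.0503), ATO replicate 3 (-0.14, adjusted p = 0.106) or ATRA+ATO replicate 1 (-0.11, adjusted p = 0.167). RNF4 (0.03, adjusted p = 0.701) and SENP6 (-0.19, adjusted p = 0.0833) were not called, SENP6 with a call of -0.21 after GC correction (adjusted p = 0.00306) and of -0.20 without ATRA replicate 2 or 3 (adjusted p = 0.0134 and 0.0316).

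In HL-60 the same comparison gave 3 higher and 2 lower (27.5% and 27.0%). SP100 (0.62 ± 0.058, adjusted p = 4.72e-09), PIAS1 (0.55 ± 0.049, adjusted p = 2.26e-09) and SENP6 (0.40 ± 0.064, adjusted p = 1.41e-05, GC-corrected 0.13 with adjusted p = 0.00445) were higher. SUMO3 (-0.18 ± 0.049, adjusted p = 0.00281) and DAXX (-0.18 ± 0.061, adjusted p = 0.0164) were lower, and neither was called after GC correction (-0.09 and -0.04, with adjusted p = 0.0596 and 0.545). The call of DAXX was lost without ATO replicate 2 (-0.14, adjusted p = 0.0982) or ATRA+ATO replicate 1 or 3 (-0.15 each, adjusted p = 0.0662 and 0.0905). PML was at 0.08 (adjusted p = 0.455), and at 0.25 after GC correction (adjusted p = 0.00112). SUMO2 (-0.06) and RNF4 (-0.04) were not called (adjusted p = 0.348 and 0.547), except RNF4 without ATRA+ATO replicate 2 (-0.12, adjusted p = 0.0377).

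Set against ATO, ATRA gave 5 genes higher and 0 lower in NB4 (25.2% of genes higher, 24.2% lower). PML (0.61 ± 0.065, adjusted p = 5.25e-08) and SP100 (1.20 ± 0.090, adjusted p = 1.77e-10) led, and PIAS1 was at 0.32 ± 0.073 (adjusted p = 0.00103), or 0.19 without ATRA replicate 2 (adjusted p = 0.0112). With library sizes alone the count was 2 higher (PML and SP100) and 2 lower (DAXX and SUMO3). RNF4 (0.19 ± 0.059, adjusted p = 0.0106) lost its call without ATRA replicate 1 or 3 or ATO replicate 2 (0.14 to 0.17, adjusted p of 0.0546 to 0.0831). SUMO2 (0.16 ± 0.061, adjusted p = 0.0293) lost it in 6 of 12 fits (untreated 2, ATRA 1 or 3, ATO 1 or 2, or ATRA+ATO 2, at 0.11 to 0.16 and adjusted p of 0.0512 to 0.231). DAXX (-0.04), SUMO3 (-0.08) and SENP6 (-0.03) were not called (adjusted p = 0.699, 0.393 and 0.799), SENP6 with a call of -0.14 after GC correction (adjusted p = 0.0434) and of -0.19 without ATRA replicate 2 (adjusted p = 0.0408).

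In HL-60 ATRA against ATO gave 3 higher and 1 lower (20.6% and 20.5%). PML (0.34 ± 0.082, adjusted p = 0.00199), SP100 (0.59 ± 0.058, adjusted p = 1.83e-08) and PIAS1 (0.18 ± 0.049, adjusted p = 0.00496) were higher with ATRA. SUMO2 was lower (-0.14 ± 0.053, adjusted p = 0.0413) and lost the call in 7 of 12 fits (ATRA 1, 2 or 3, ATO 2 or 3, or ATRA+ATO 1 or 3, at -0.14 to -0.10 and adjusted p of 0.0667 to 0.223). DAXX (-0.01), SUMO3 (-0.10), RNF4 (-0.04) and SENP6 (0.13) were not called (adjusted p = 0.921, 0.104, 0.596 and 0.126). SUMO3 was called without ATRA+ATO replicate 2 (-0.10, adjusted p = 0.0473), and SENP6 without ATRA+ATO replicate 1 (0.14, adjusted p = 0.0464) or 2 (0.13, adjusted p = 0.0203).

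Whether the combination differed from the sum of the single changes was read from the interaction term. In NB4 PML alone passed, at -0.38 ± 0.092 (adjusted p = 0.00537, GC-corrected -0.23 with adjusted p = 0.0117), where 6.14% of genes passed above 0 and 12.5% below. Its change with both drugs was 1.13, under the sum of 1.06 and 0.44. The other values ran from -0.20 for RNF4 to 0.24 for SENP6 and were not called (adjusted p of 0.104 to 0.947). After GC correction RNF4 was at -0.13, DAXX at -0.07, SUMO3 at -0.07, PIAS1 at 0.08 and SENP6 at 0.10, and none was called. Without ATRA replicate 2, RNF4 (-0.24, adjusted p = 0.0269), PIAS1 (0.26, adjusted p = 0.02) and SENP6 (0.38, adjusted p = 0.00726) were called as well.

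In HL-60 SENP6 (0.44 ± 0.090, adjusted p = 5.89e-04, GC-corrected 0.16 with adjusted p = 0.0264), PIAS1 (0.22 ± 0.069, adjusted p = 0.0196) and SUMO2 (0.20 ± 0.075, adjusted p = 0.046) passed, where 14.4% of genes passed above 0 and 18.1% below. PIAS1 and SUMO2 were not called after GC correction (0.05 and 0.15, adjusted p = 0.49 and 0.112). PIAS1 was not called without untreated replicate 3 (0.18, adjusted p = 0.0594), and SUMO2 was not called in 8 of 12 fits (without untreated 2, ATRA 1, 2 or 3, ATO 1 or 2, or ATRA+ATO 2 or 3, at 0.13 to 0.21 and adjusted p of 0.0512 to 0.164). PML (-0.26, adjusted p = 0.0997) was called with the replicate block (adjusted p = 0.0465) and without ATRA+ATO replicate 2 (-0.36, adjusted p = 0.00494), and it was 0.01 after GC correction (adjusted p = 0.961). SUMO3 (-0.13, adjusted p = 0.156, GC-corrected -0.02) was called without untreated replicate 2 or ATRA+ATO replicate 2 (-0.18 each, adjusted p = 0.044 and 0.0211). SP100 (-0.13, adjusted p = 0.258) was called after GC correction (-0.23, adjusted p = 0.00882), and DAXX (-0.04) and RNF4 (0.02) were not called (adjusted p = 0.738 and 0.855).

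The lines differed in how the 8 genes responded, by a test of the difference itself over all 24 libraries and 17930 genes. PML, whose count in NB4 also holds reads of the fusion transcript, responded more in NB4 with each treatment. The NB4 change minus the HL-60 change was 1.07 ± 0.11 with ATRA+ATO (adjusted p = 4.12e-10, GC-corrected 0.61 with adjusted p = 6.89e-09), 0.71 ± 0.11 with ATRA (adjusted p = 1.85e-06) and 0.47 ± 0.11 with ATO (adjusted p = 0.00211, GC-corrected 0.29 with adjusted p = 0.00508). SP100 also rose more in NB4 with ATRA+ATO (0.55 ± 0.11, adjusted p = 9.42e-05) and with ATRA (0.57 ± 0.11, adjusted p = 1.11e-04), from a lower start, while with ATO its difference was -0.01 (95% interval -0.23 to 0.21).

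SENP6 went the other way, at -0.79 ± 0.12 with ATRA+ATO (adjusted p = 1.66e-06, GC-corrected -0.44 with adjusted p = 8.47e-07) and -0.39 ± 0.12 with ATRA (adjusted p = 0.00994), where the call was lost without NB4 ATRA replicate 3 (-0.26, adjusted p = 0.0763). With ATO it was -0.20 (adjusted p = 0.323), GC-corrected -0.07. SUMO2 (-0.30 ± 0.080, adjusted p = 0.00225) and SUMO3 (-0.30 ± 0.084, adjusted p = 0.00373, GC-corrected -0.57 with adjusted p = 5.81e-09) were also lower in NB4 by this measure with ATRA+ATO. In that comparison the median over all genes was 0.11, and -0.01 after GC correction. RNF4 responded more in NB4 to ATRA (0.29 ± 0.080, adjusted p = 0.00499).

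In all, the NB4 change was the higher one for 2 of the 8 genes and the lower one for 3 with ATRA+ATO (24.9% and 22.7% of all genes), and for 3 and 1 with ATRA (17.7% and 16.8%). With ATO it was higher for PML alone and lower for 0 (7.11% and 6.0%). Of all genes called there, 54.2% were higher in NB4, or 38.1% after GC correction. DAXX differed by 0.02, 0.05 and 0.12 with ATRA+ATO, ATRA and ATO (adjusted p = 0.903, 0.759 and 0.485), but by -0.37 with ATRA+ATO after GC correction (adjusted p = 2.81e-04). PIAS1 differed by -0.15, -0.00 and -0.10 (95% intervals -0.33 to 0.02, -0.18 to 0.18 and -0.28 to 0.08), and with ATRA+ATO by 0.04 after GC correction. RNF4 differed by 0.16 with ATRA+ATO (adjusted p = 0.0947), by -0.01 after GC correction and by 0.24 without HL-60 ATRA+ATO replicate 2 (adjusted p = 0.0086), and by 0.09 with ATO (adjusted p = 0.532). SUMO2 was at 0.07 with ATRA (adjusted p = 0.566) and -0.19 with ATO (adjusted p = 0.116), or -0.27 without HL-60 untreated replicate 2 (adjusted p = 0.0295). SUMO3 was at -0.14 with ATRA and -0.13 with ATO (adjusted p = 0.219 and 0.372), and both were called after GC correction (-0.27 and -0.25, adjusted p = 0.0014 and 0.00744).

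**Figure D3:**
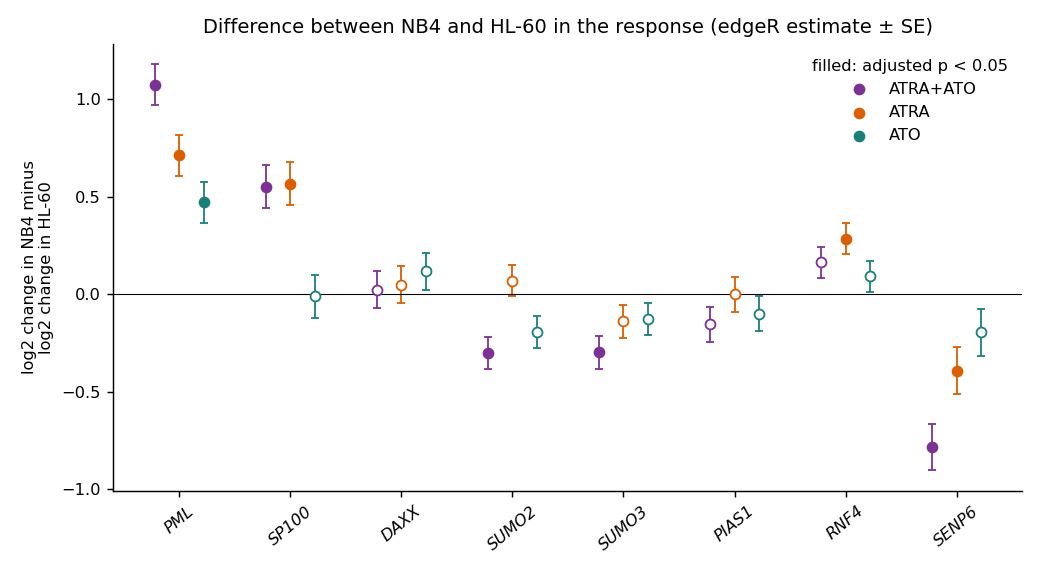
Log2 change in NB4 minus log2 change in HL-60 (y axis, edgeR estimate ± SE) for the 8 genes and 3 treatments; filled points passed an adjusted p of 0.05. PML is above 0 with all 3 treatments, at 0.47 to 1.07, and SENP6 is lowest with ATRA+ATO, at -0.79.

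Before any drug, 4 of the 8 genes were higher in NB4 than in HL-60 and 3 were lower (29.1% and 34.0% of genes). PML, whose count in NB4 also holds reads of the fusion transcript, was higher (0.70 ± 0.075, adjusted p = 1.18e-09). SP100, the partner of PML in the bodies, was lower (-1.03 ± 0.080, adjusted p = 7.68e-13). SUMO3 (-0.87 ± 0.060, adjusted p = 5.28e-14) and SENP6 (-1.08 ± 0.085, adjusted p = 1.09e-12) were also lower in NB4. RNF4 (0.33 ± 0.056, adjusted p = 6.98e-06) and SUMO2 (0.18 ± 0.057, adjusted p = 0.00692) were higher in NB4, and SUMO2 lost its call without HL-60 untreated replicate 1 (0.14, adjusted p = 0.0652). For DAXX the lines overlapped (0.20 ± 0.067, adjusted p = 0.0119). Its call was lost with the replicate block (adjusted p = 0.0606) and without NB4 untreated replicate 2 (0.14, adjusted p = 0.0977) or 3 (0.17, adjusted p = 0.0565) or HL-60 untreated replicate 1 (0.17, adjusted p = 0.0536). PIAS1 differed by 0.01, with a 95% interval of -0.11 to 0.14.

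Per kilobase of merged exon, SUMO2 led in every NB4 group and SUMO3 in every HL-60 group. In NB4 SUMO2 was at 53.6 CPM per kb with ATRA+ATO and 75.9 CPM per kb without drug, and SUMO3 at 30.8 and 42.1. In HL-60 SUMO3 was at 69.1 CPM per kb with ATRA+ATO and 76.8 CPM per kb without drug, and SUMO2 at 58.3 and 67.0. On this scale PML and SP100 were the lowest of the 8 in untreated cells of both lines. PML was at 4.41 CPM per kb in untreated NB4 cells and SP100 at 2.06, and in untreated HL-60 cells PML was at 2.71 and SP100 at 4.22. With ATRA+ATO in NB4 PML reached 9.68 CPM per kb, above SENP6 (4.86) and SP100 (5.10), whose libraries overlapped.

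The order depends on the length used, since merged exons (12657 bases for PML and 12618 for SP100) are longer than any 1 transcript. Per kilobase of 1 coding transcript a gene (4508 and 2926 bases), a length chosen after the data were seen, SUMO2 still led in every NB4 group, with libraries overlapping those of SUMO3 under ATO, and SUMO3 in every HL-60 group. In untreated HL-60 cells SP100 then stood at 18.2 CPM per kb of transcript, above DAXX (16.8), PIAS1 (15.1) and PML (7.61). In untreated NB4 cells PML (12.4) overlapped SENP6 (12.7), and SP100 (8.88) was the lowest.

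Ratios within a library showed these line patterns without scaling between libraries. SUMO2 per SUMO3, in reads per exon base, was 1.5 to 1.90 in the 12 NB4 libraries and 0.739 to 0.894 in the 12 HL-60 libraries, and per transcript base it ran from 1.05 to 1.33 in NB4 libraries and from 0.517 to 0.625 in HL-60 libraries. By both lengths the ratio was thus higher in NB4 than in HL-60. Which modifier was in excess in HL-60 depends on dividing by a length. Mean levels of SUMO2 and SUMO3 there were 197 and 189 CPM with ATRA+ATO and 188 and 201 CPM with ATRA. They were 206 and 215 CPM with ATO and 226 and 210 CPM without drug. The PML count of NB4 also holds reads of the fusion transcript. PML per SP100, in reads per exon base, was 1.48 to 2.79 in NB4 libraries and 0.344 to 0.704 in those of HL-60. Per transcript base it ran from 0.961 to 1.82 in NB4 and from 0.224 to 0.458 in HL-60. In NB4 the ratio per exon base averaged 1.92 with ATRA+ATO and 1.80 with ATRA, against 2.15 in untreated cells. With ATO, where PML was called higher and SP100 was not, it averaged 2.69. SAE1 per UBA2, the subunits of the SUMO-activating enzyme, was 5.74 to 8.67 across NB4 and 0.766 to 1.33 across HL-60 libraries. No ratio overlapped between the lines in any treatment.

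**Figure D4:**
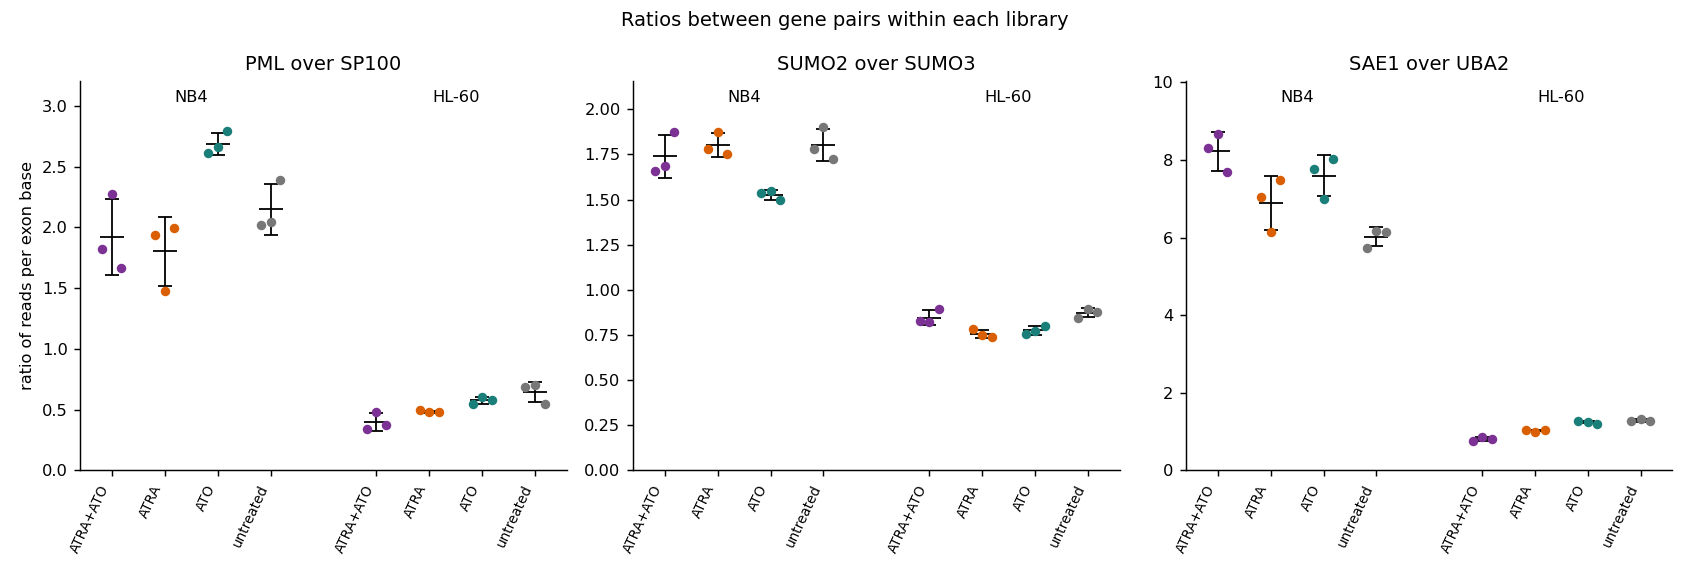
Ratio of reads per exon base between members of 3 gene pairs within each library (y axes from 0; points are libraries, black bars the mean ± SD of 3). SUMO2 over SUMO3 is above 1 in all 12 NB4 libraries and below 1 in all 12 HL-60 libraries, and SAE1 over UBA2 is at least 5.74 in NB4 and at most 1.33 in HL-60.

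The other genes of these routes were read from 5 lists with 40 genes. All 40 were tested in NB4 and 39 in HL-60. In NB4 14 rose and 20 fell with ATRA+ATO (35.4% and 32.8% of all genes; median log2 change -0.17, against 0.05 over all genes), 11 rose and 22 fell with ATRA (31.3% and 28.6%; -0.21, against 0.03) and 9 rose and 15 fell with ATO (21.2% and 19.6%; -0.07, against 0.02). In HL-60 17 rose and 10 fell with ATRA+ATO (30.7% and 29.7%; 0.10, against -0.00), 9 rose and 15 fell with ATRA (25.2% and 23.3%; -0.01, against 0.01) and 11 rose and 11 fell with ATO (16.5% and 12.1%; 0.03, against 0.02). After GC correction the counts with ATRA+ATO were 13 and 22 in NB4 and 18 and 10 in HL-60.

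The relatives of SP100 rose with it. SP110, SP140 and SP140L, chromatin-reading proteins encoded beside SP100 on chromosome 2, rose with every treatment in both lines, and most with ATRA+ATO. SP110 and SP140L were singled out after their values had been seen. SP110 rose by 1.93 ± 0.076 in NB4 and 1.41 ± 0.069 in HL-60 with ATRA+ATO, SP140L by 1.63 ± 0.070 and 1.05 ± 0.062, and SP140 by 2.55 ± 0.22 and 3.15 ± 0.095 (adjusted p of 5.29e-18 to 6.11e-10). SP140 was at 4.79, 5.33 and 6.63 CPM with ATRA+ATO in NB4, against 0.827, 0.981 and 1.03 CPM without drug. In HL-60 it was at 40.3, 38.1 and 39.1 CPM, against 4.68, 4.18 and 4.52 CPM. Unlike SP100 in NB4, SP110 (0.43), SP140L (0.47) and SP140 (1.40) were called with ATO alone (adjusted p = 9.12e-05, 1.49e-05 and 2.95e-05). The genes run from SP110 at 230167293 to SP100, and SP140 shares 170 exon bases with SP110 on the opposite strand, which counts without strand cannot separate.

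Of the 14 listed body proteins, SP110, SP140 and SP140L among them, 7 rose and 6 fell in NB4 with ATRA+ATO (35.4% and 32.8% of all genes). In HL-60 13 were tested, and 7 rose and 3 fell (30.7% and 29.7%). Apart from the relatives of SP100, HIPK2, a nuclear kinase, rose by 2.44 ± 0.079 in NB4 and 3.94 ± 0.067 in HL-60 with ATRA+ATO (adjusted p = 3.12e-17 and 2.30e-22). In NB4 it did so with ATRA (2.32) and not with ATO (-0.00, adjusted p = 0.972). ZBTB16, the gene of the repressor PLZF, which is itself fused to RARA in a rarer APL, fell by 4.63 on the log2 scale in NB4 with ATRA+ATO (adjusted p = 2.04e-18). It stood at 1.83, 2.75 and 2.17 CPM in NB4 with the combination and 54.7, 57.8 and 55.0 CPM without drug. In HL-60 it was at 0, 0.385 and 0 CPM with ATRA+ATO and 21.0, 18.9 and 21.0 CPM without drug. TRIM24 in NB4 (-0.14, adjusted p = 0.0642) and ATRX in HL-60 (0.09, adjusted p = 0.518) were the most abundant genes of the list that were not called.

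The mRNAs of the enzyme that activates SUMO were lower in both lines. Its subunits, SAE1 and UBA2, both fell with ATRA+ATO and with ATRA in NB4 and in HL-60. Over all genes, 32.8% fell in NB4 and 29.7% in HL-60 with ATRA+ATO, and 28.6% and 23.3% with ATRA. With ATRA+ATO UBA2 fell by 1.06 on the log2 scale in NB4 and by 0.16 in HL-60 (adjusted p = 1.67e-12 and 0.00125). SAE1 fell by 0.60 and 0.83 (adjusted p = 3.16e-09 and 1.03e-13). After GC correction both were still called lower with ATRA+ATO in both lines.

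Of 10 SUMO ligases, 3 rose and 4 fell in NB4 with ATRA+ATO, and 4 rose and 2 fell in HL-60, where 35.4% and 32.8% of all genes rose and fell in NB4 and 30.7% and 29.7% in HL-60. TRIM28, a corepressor with SUMO ligase activity, fell by 0.96 in NB4 and by 0.66 in HL-60 (adjusted p = 8.01e-11 and 7.59e-09), and ZMIZ1, a PIAS-like protein, rose by 0.89 and 0.93 (adjusted p = 5.14e-10 and 1.35e-14). ZNF451 in NB4 (-0.13) and RANBP2 in HL-60 (0.12) were not called (adjusted p = 0.175 and 0.26). Of 8 proteases other than SENP6, 6 fell and 1 rose in NB4 with ATRA+ATO (32.8% and 35.4% of all genes), led by DESI2 (-0.84) and DESI1 (-0.67) (adjusted p = 2.86e-10 and 5.12e-09), with SENP1 at -0.15 (adjusted p = 0.0621). In HL-60 3 fell and 2 rose (29.7% and 30.7%), with DESI1 at -0.31, SENP5 at 0.42 and SENP2 at 0.05 (adjusted p = 3.49e-05, 2.68e-06 and 0.551).

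The genes that act beside or after RNF4 split. RNF111, the other SUMO-targeted ubiquitin ligase of the lists, rose in HL-60 with ATRA+ATO (0.68, adjusted p = 1.12e-10), where RNF4 was at -0.07. USP11, a ubiquitin protease that counters RNF4, rose by 0.82 in NB4 and by 0.80 in HL-60 (adjusted p = 4.73e-09 and 7.40e-10). USP7, which removes ubiquitin from SUMO-modified proteins, fell in NB4 (-0.59, adjusted p = 3.21e-09) and was at -0.06 in HL-60 (adjusted p = 0.284). UFD1, a cofactor of the segregase VCP, was at -0.09 in NB4 (adjusted p = 0.24). In all 3 rose and 2 fell of the 6 genes in NB4 (35.4% and 32.8% of all genes), and 4 rose and 0 fell in HL-60 (30.7% and 29.7%).

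**Figure D5:**
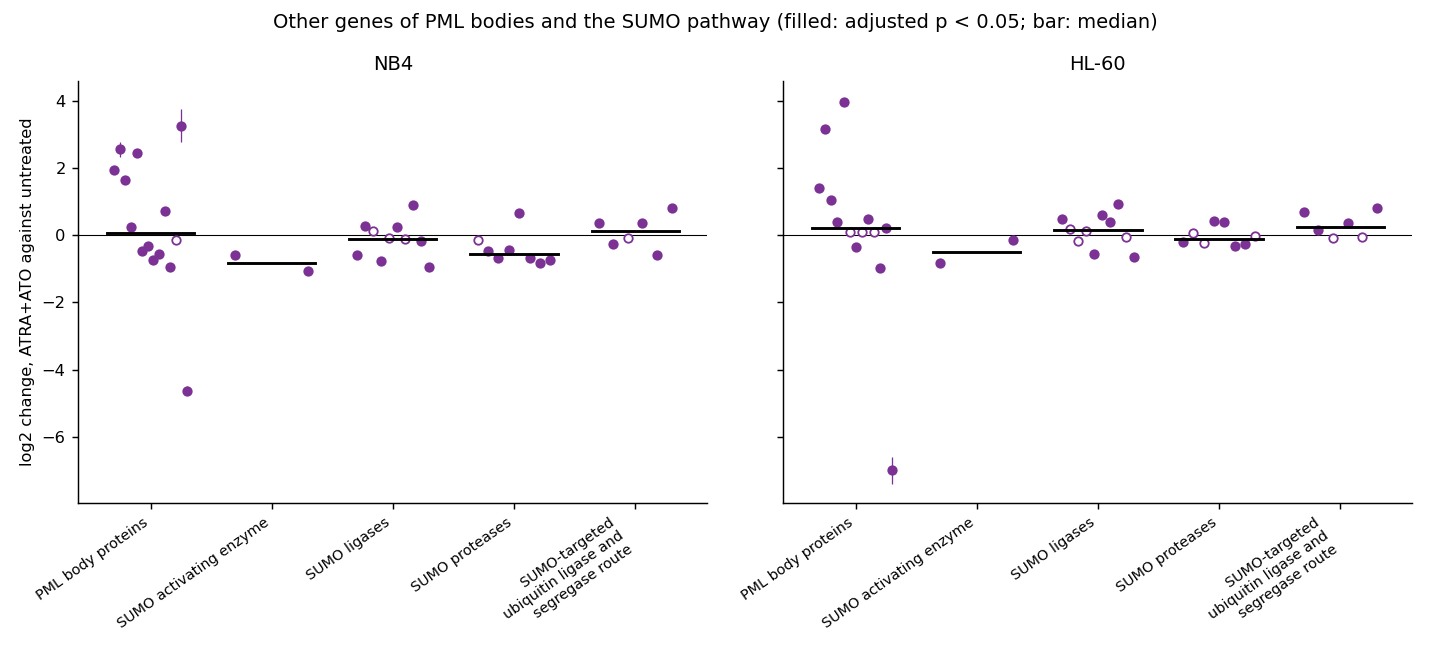
Log2 change with ATRA+ATO against untreated (y axis, edgeR estimate ± SE) of the 40 other genes by list, in NB4 (left) and HL-60 (right); filled points passed an adjusted p of 0.05 and black bars are list medians. Both subunits of the activating enzyme lie below 0 in both lines (2 of 2 called lower), and the proteases lie mostly below 0 in NB4 (6 of 8 called lower). Over all genes, 32.8% were called lower in NB4 and 29.7% in HL-60.

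For each of the 8 genes the most similar profiles over the 8 group means of log2 CPM were sought among 11122 protein-coding genes. Differences between the lines dominate the profiles of PML, SUMO3, RNF4 and SENP6, whose group means did not overlap between NB4 and HL-60. For SP100, DAXX, SUMO2 and PIAS1 the groups of the lines were interleaved, and PIAS1 was lowest in the untreated cells of both lines. The correlations describe the profiles and carry no test. PML was most like HIF1AN (r = 0.995), C16orf54 (0.992) and MARK2 (0.992), and SP100 most like HIVEP3 (0.993), FAM20C (0.991) and CD53 (0.989). DAXX was most like MRPL16 (0.990), a gene without a symbol in the table (0.987) and RFXAP (0.986). SUMO2 had the weakest best match, EIF2S2 (0.951), followed by STOM (0.950) and MRPL48 (0.950), and SUMO3 was most like ZNF551 (0.998), TMEM183A (0.997) and TAF15 (0.996). RNF4 was most like IFITM1 (0.997), C17orf97 (0.996) and BASP1 (0.994), PIAS1 like H2BC12 (0.984), NCEH1 (0.977) and TRIP12 (0.974), and SENP6 like MTERF1 (0.998), C18orf21 (0.997) and WTAP (0.996). Among the 8 genes themselves, SUMO3 and SENP6 were alike (r = 0.967) and RNF4 and PML were alike (0.923), whereas PML and SP100 were not (-0.20).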

How the data were processed

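The authors deposited raw counts per gene for 24 libraries of poly(A) RNA, sequenced as paired-end reads of 150 bases. Per the submitters' processing notes, fastp, HISAT2, featureCounts and DESeq2 were used with GRCh38. Tool versions, the annotation release and strandedness are not given in the labels. Of counts from 1 to 9, 74.4% were even, against 51.5% of counts of at least 500, so whether mates were counted singly is not settled and read depth is uncertain to that extent.

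Ensembl IDs were matched to GENCODE v29 for 58393 of 60655 genes. The deposited counts were tested with edgeR 4.0.16 (filterByExpr, TMM, quasi-likelihood) in R 4.3.3, over the 12 libraries of a line (8 residual degrees of freedom) or all 24 for line differences (16), and p-values were adjusted by Benjamini-Hochberg over all genes tested. Biological coefficients of variation were 8.78% in NB4 and 7.00% in HL-60. Levels are CPM, or CPM per kilobase of merged exon. The scripts were tested on simulated data. Alternatives were DESeq2 1.42.0, limma-voom 3.58.1, other scalings, filters and designs, leaving out each library, and a lowess correction along GC content added after the data were seen.

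The labels call the replicate number a batch, so it was also fitted as a block. Residuals of same-numbered libraries correlated between -0.55 and 0.44 in NB4 and between -0.11 and 0.46 in HL-60, with 4 of 18 pairs over 0.1 in each line. No replicate pair agreed within sampling noise (chi-square per degree of freedom of at least 4.60).

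The 8 genes and the lists were chosen with earlier results of these data known. From each list and line, the 2 genes with the smallest p for ATRA+ATO and the most abundant uncalled gene are named, and all genes of a list of 2, plus the neighbours of SP100. The lists' other genes are given by counts, and some genes of the SUMO route are not reported here. Promoter windows are from RefSeq (GRCh38.p14).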

Additional observations from a re-analysis of the deposited data

Results flagged for a closer look

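Each of the 10 values here is the log2 change in NB4 minus that in HL-60, and each passed edgeR's test of that difference over all genes. PML was higher by this measure with ATRA+ATO (1.07), ATRA (0.71) and ATO (0.47), and SP100 with ATRA+ATO (0.55) and ATRA (0.57). In NB4 the count of PML also holds reads of the fusion transcript. RNF4 was higher with ATRA (0.29). SENP6 was lower with ATRA+ATO (-0.79) and ATRA (-0.39), and SUMO2 (-0.30) and SUMO3 (-0.30) were lower with ATRA+ATO. After GC correction all 10 were still called with the same sign.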

How the results depend on the processing

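Of 144 results on single genes, 79 were called. Over the alternatives other than leaving out a library, 1454 of 1648 values kept their direction and side of the threshold, and of 2112 values without 1 library 1957 did.

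With the replicate number as a block, RNF4 in NB4 ATRA+ATO against ATRA (adjusted p = 0.0604) and DAXX between untreated lines (adjusted p = 0.0606) lost the call, PML in the HL-60 interaction gained it (adjusted p = 0.0465), and PML in HL-60 with ATO changed sign (0.0017); no other call changed with the block.

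The number of the 8 genes called moved by over 1.5 times as follows. It was 7 in NB4 with ATO and 5 in HL-60 with ATO after GC correction, with or without the block, 1 in HL-60 ATRA+ATO against ATRA after GC correction, and 2 for the line difference with ATO (3 with the block). At an adjusted p of 0.01 it was 2 in NB4 ATRA+ATO against ATRA, 3 in NB4 ATRA against ATO, 0 in HL-60 with ATO, 2 in HL-60 ATRA+ATO against ATRA and 1 in the HL-60 interaction. It was 2 in NB4 ATRA+ATO against ATRA with the compared groups alone, 3 in NB4 ATRA against ATO without a filter, and 0 in HL-60 with ATO and 1 in the HL-60 interaction with all 24 libraries in the fit.

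Without 1 library the number called ran, in NB4, from 6 to 7 with ATRA, 3 to 3 with ATO, 7 to 7 with ATRA+ATO, 2 to 5 for ATRA+ATO against ATRA, 5 to 7 against ATO, 3 to 6 for ATRA against ATO and 1 to 4 for the interaction. In HL-60 it ran from 4 to 4, 0 to 4, 4 to 7, 2 to 5, 4 to 6, 3 to 6 and 2 to 4 in the same order. It ran from 3 to 4, 1 to 2 and 5 to 6 for the line difference with ATRA, ATO and ATRA+ATO, and from 5 to 7 between untreated lines.

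Only 1 called result changed sign, SUMO2 in NB4 ATRA against ATO with library sizes alone (-0.0095). The other sign changes were of uncalled values, some of them as large as called ones elsewhere (PML in the HL-60 interaction at -0.26, RNF4 and PIAS1 in the line difference with ATRA+ATO at 0.16 and -0.15). After GC correction they were RNF4 in NB4 with ATO (-0.036, also with the block), SP100 in ATRA+ATO against ATRA (NB4 0.011, HL-60 -0.059 and with the block -0.060), PML and DAXX in the HL-60 interaction (0.0084 and 0.15, with the block 0.0049 and 0.15), and line differences of DAXX (ATRA -0.11, ATO -0.052 and with the block -0.051, ATRA+ATO -0.37), PIAS1 (ATRA 0.070 and with the block 0.069, ATRA+ATO 0.041), SP100 (ATO 0.011 and with the block 0.012) and RNF4 (ATRA+ATO -0.0081 and with the block -0.0070). With library sizes alone they were DAXX and SUMO3 in NB4 with ATO (0.074 and 0.0028), SP100 in ATRA+ATO against ATRA (NB4 0.12, HL-60 -0.0081), PML in HL-60 with ATO and ATRA+ATO (0.016 and -0.0067), RNF4 in the HL-60 interaction (-0.031) and SP100 in the line difference with ATO (0.052). SP100 in NB4 ATRA+ATO against ATRA was 0.0054 with all 24 libraries, 0.015 with a minimum of 1 CPM in 3 libraries, 0.0051 without a filter and 0.012 with the compared groups alone. PIAS1 in the line difference with ATRA was 0.011 with DESeq2 and its size factors and 0.013 with the 1 CPM minimum, DAXX in that with ATRA+ATO was -0.0094 without a filter, and PML in HL-60 with ATO was 0.0017 with limma-voom. RNF4 in HL-60 ATRA+ATO against ATRA was 0.0071 with DESeq2, 0.0070 with its size factors, 0.0017 with limma-voom, 0.020 after GC correction (0.018 with the block) and 0.0013 with the compared groups alone. Against ATO in HL-60, RNF4 was 0.0064 after GC correction (0.0045 with the block) and PML -0.023 with library sizes alone.

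Without 1 library, sign changes came in these ranges: DAXX and PIAS1 in NB4 with ATO (-0.11 to 0.018 and -0.017 to 0.057), SP100 in ATRA+ATO against ATRA (NB4 -0.067 to 0.082, HL-60 -0.044 to 0.071), SUMO2 in the NB4 interaction (-0.016 to 0.078) and RNF4 in that of HL-60 (-0.055 to 0.074), SENP6 in HL-60 with ATRA (-0.079 to 0.010), PML and RNF4 in HL-60 with ATO (-0.087 to 0.056 and -0.052 to 0.0048), PML in HL-60 with ATRA+ATO (-0.031 to 0.14), line differences of DAXX (ATRA -0.029 to 0.11, ATRA+ATO -0.054 to 0.073), PIAS1 (ATRA -0.11 to 0.081) and SP100 (ATO -0.067 to 0.020), PIAS1 between untreated lines (-0.025 to 0.050), RNF4 in ATRA+ATO against ATO (NB4 -0.019 to 0.066, HL-60 -0.12 to 0.013) and in HL-60 ATRA+ATO against ATRA (-0.079 to 0.036), SENP6 in NB4 ATRA against ATO (-0.19 to 0.044), PML in HL-60 ATRA+ATO against ATO (-0.030 to 0.15) and DAXX in HL-60 ATRA against ATO (-0.022 to 0.031).

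Library sizes alone moved the median of all genes by 0.11 in NB4 with ATO (69.0% of calls higher, against 51.9% with TMM), 0.14 in NB4 ATRA+ATO against ATRA (68.4%, against 44.3%), -0.17 in NB4 ATRA against ATO (33.8%, against 51.0%), -0.10 in HL-60 ATRA+ATO against ATO (39.6%, against 50.5%), 0.13 in the line difference with ATRA+ATO and 0.13 between untreated lines. Under it calls were lost for SUMO2 (-0.17, adjusted p = 0.0861) and SUMO3 (-0.16, adjusted p = 0.0991) in the line difference with ATRA+ATO, SUMO3 (-0.14, adjusted p = 0.116), DAXX (-0.09) and RNF4 (-0.02) in NB4 ATRA+ATO against ATRA, PIAS1 (0.15, adjusted p = 0.117), SUMO2 and RNF4 (0.02) in NB4 ATRA against ATO, SENP6 in HL-60 with ATRA+ATO (0.14, adjusted p = 0.0635) and ATO (-0.15, adjusted p = 0.0815), PIAS1 in HL-60 ATRA against ATO (0.12, adjusted p = 0.0665), and PIAS1 (0.16) and SUMO2 (0.14) in the HL-60 interaction. Under it calls were gained for RNF4 in NB4 with ATO and ATRA+ATO, in HL-60 with ATRA+ATO (-0.15), in HL-60 ATRA+ATO against ATO (-0.14) and in the line difference with ATRA+ATO (0.30), PML (0.21, adjusted p = 0.009) and PIAS1 (0.32) in NB4 ATRA+ATO against ATRA, DAXX (-0.21) and SUMO3 (-0.25) in NB4 ATRA against ATO, DAXX in HL-60 with ATRA (-0.18), SUMO3 in HL-60 ATRA+ATO against ATRA (-0.12), ATRA against ATO (-0.17) and the interaction (-0.19), SUMO2 in HL-60 ATRA+ATO against ATO (-0.16), PML in the HL-60 interaction (-0.31) and PIAS1 between untreated lines (0.16). Which of the smaller changes were called thus depends on the scaling. Other settings also ended calls of DAXX in ATRA+ATO against ATRA (no filter or the compared groups alone, adjusted p of 0.0522 to 0.0873 over both lines), SUMO2 in NB4 ATRA+ATO against ATO (DESeq2's size factors or the 1 CPM minimum), SUMO2 in NB4 ATRA against ATO (no filter, all 24 libraries or the compared groups), RNF4 there (no filter), SUMO3 in HL-60 with ATRA+ATO (the compared groups), and, with all 24 libraries, PIAS1 and SENP6 in HL-60 with ATO, SUMO2 in HL-60 ATRA against ATO, and SUMO2 and PIAS1 in the HL-60 interaction. Calls were gained for SENP6 in NB4 ATRA+ATO against ATO (no filter or the compared groups), SUMO2 in HL-60 with ATO and SUMO3 and SENP6 in HL-60 ATRA against ATO (the compared groups), and RNF4 in the line difference with ATRA+ATO (the 1 CPM minimum). The causes were not tested. Counts were at least 1116, but counting error was not small beside the spread between libraries in every group. For PML in NB4 with ATO the SD was 0.12 CPM around a mean of 76.7 CPM. The 3 libraries a group limit the precision.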
